A study of Capra hircus with 72 samples.

Results

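The 352 genes described here came from goat skeletal muscle of the series named 6D, and they are the genes that the authors' deposited tables listed for both transport durations against control, 180 min and 30 min. They were drawn from 1618 genes in the 180 min table and 1252 in the 30 min table, of 2518 in either and of 7558 in any of the 6 tables of the series. The shared genes made up 21.8% of the 180 min table and 28.1% of the 30 min table. What follows sets the 9 goats transported for 180 min directly against the 9 transported for 30 min, a contrast that no deposited table gives.

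The study used 54 intact male Spanish goats, 8 months old, 18 to a treatment, and its 72 libraries hold blood and muscle RNA. Goats of the 180 min group were driven about 200 km, goats of the 30 min group about 50 km, and control goats stayed in pens. Feed was withheld overnight from all groups before slaughter, so the controls were fasted too. The goats of the 6D muscle libraries were numbered 10 to 18 (180 min), 19 to 27 (30 min) and 1 to 9 (control), and each library is 1 goat. The labels do not say what 6D and 24H, the names of the muscle sets, stand for, nor on which of the study's days a goat was handled. One control library, goat 9, carries a treatment text for 180 min beside a title and a group tag for control. It enters no 180 min against 30 min value, but it took part in choosing the genes, and the choice was not made again without it.

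Transport and handling activate the pituitary-adrenal axis in ruminants, and the glucocorticoids that are released act in muscle through the glucocorticoid receptor. Well-known targets of that receptor are FKBP5, a chaperone partner that dampens the receptor, KLF15, a regulator of amino acid breakdown, and PER1, which also belongs to the circadian clock. In fasted or stressed muscle FOXO1 turns on genes of protein breakdown, and lipases release and take up fatty acids as fuel.

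Every listed gene had an unadjusted p under 0.05 against control in the authors' deposited tables. Of the 352 genes, 114 were higher than control at both durations and 235 were lower at both. SPSB2 and THOC6 were listed as higher at 180 min and lower at 30 min, and BHLHE41 as lower at 180 min and higher at 30 min. After their own adjustment, the deposited tables called 53 of the 352 genes at 180 min and 2 at 30 min, of 119 and 3 called over each whole table. The 2 contrasts share the 9 control libraries, so their changes are given side by side only. Among the genes higher at both durations the median log2 change against control was 0.73 at 180 min and 0.71 at 30 min. Among those lower at both it was -0.86 at 180 min and -0.84 at 30 min. The files name 278 of the genes and leave 74 with an identifier only. By the files' biotypes, 341 are protein coding.

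Levels are given as CPM, a gene’s count divided by the library total in M counts (M for mega), where the total is the one that the deposited counts, FPKM values and gene lengths imply. These totals ran from 10.2 to 19.3 M counts at 180 min, from 11.9 to 18.8 M counts at 30 min and from 9.45 to 16.1 M counts in control. The 352 genes took 0.627 ± 0.0834% of the library at 180 min and 0.616 ± 0.11% at 30 min (SD, n = 9 each, two-sided exact permutation p = 0.831). Goat 19 of the 30 min group stood apart at 0.879%, with the next 30 min library at 0.648%, and leaving it out gave 0 calls too between the durations. The files list none of the 18 muscle fibre markers among the 352 genes, so the tissue label could not be checked with them.

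Between muscle of goats driven for 180 min and for 30 min the differences of most of these genes were small, and no gene passed the test. The adjusted p of edgeR's quasi-likelihood test (Benjamini-Hochberg over 352 genes) was under 0.05 for 0 genes, a share of 0.0%. At an unadjusted p under 0.05 there were 16 genes, 4.55% of those tested. DESeq2 called 5 genes (1.42%), PITX3, BAG2, SPSB2 and THOC6 as higher and BHLHE41 as lower at 180 min, while limma and an exact permutation test called 0. Among these calls SPSB2, THOC6 and BHLHE41 were listed in opposite directions against control, so a difference was built into their choice. The median log2 difference of 180 min minus 30 min was -0.04, with the middle 50% of genes between -0.20 and 0.12. It was -0.02 for the genes listed as higher than control and -0.06 for those listed as lower. In all, 144 genes were nominally higher and 208 nominally lower at 180 min.

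The precision allows a statement on size for the better measured genes. Of the 180 genes with a mean of at least 50 counts, limma's 95% interval of the difference lay within 1 log2 unit of 0 for 158, or 87.8%. The remaining genes of that group had intervals that reach past a 2-fold difference. The same interval lay within 1 log2 unit for 98.3% of the 60 genes with a mean under 10 counts, where the added 0.5 CPM shrinks the differences, so it gives no bound for them and may be too narrow for other low genes. In none of the 352 genes were the 9 libraries at 180 min separated from the 9 at 30 min. The rule keeps genes that departed from control at both durations, so a gene that moved at 1 duration alone is not among them.

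**Figure D1:**
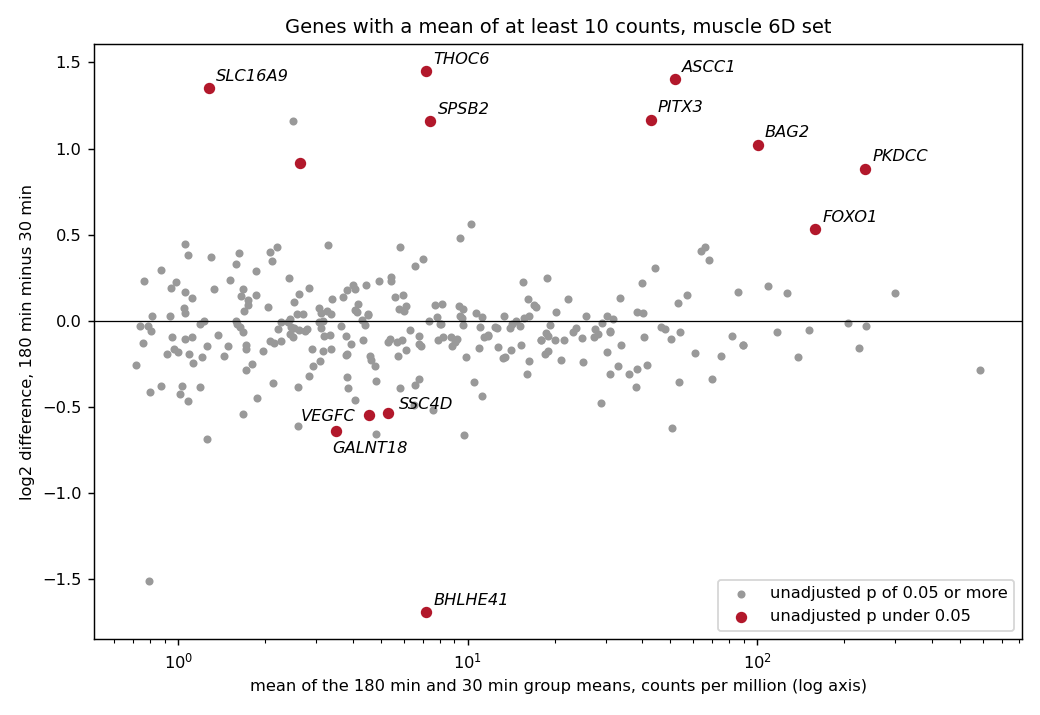
Log2 difference of 180 min minus 30 min (edgeR) against the mean level in CPM on a log axis, for the 292 genes with a mean of at least 10 counts. Red points have an unadjusted p under 0.05, and most grey points lie close to 0 at every level, with PITX3, BAG2, PKDCC, ASCC1, SPSB2 and THOC6 above them and BHLHE41 below.

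PITX3, BAG2, PKDCC and ASCC1, picked for their small p in this comparison, were listed as higher than control at both durations. Their median levels were highest at 180 min, but none passed edgeR's test. At an unadjusted p under 0.05 there were only 4.55% of the 352 genes. The counts of libraries above the 30 min group follow from that choice and are a description. PITX3 is a homeobox transcription factor known from lens and midbrain dopamine neurons and also expressed in skeletal muscle (chromosome 26, 28794557 to 28805442, in the coordinates of the deposited tables, which name no build). Its lowest, median and highest levels were 15.5, 63.9 and 101 CPM at 180 min, 15.5, 24.2 and 39.7 CPM at 30 min, and 4.89, 16.1 and 28.5 CPM in control. At 180 min, 7 of 9 libraries lay above every 30 min library, while goat 15 was as low as the lowest of them. The log2 difference was 1.17 ± 0.28 (SE), with an edgeR adjusted p of 0.0535, a DESeq2 adjusted p of 0.00586 and a limma 95% interval of 0.47 to 1.65. The authors' deposited tables gave PITX3 log2 changes of 1.99 at 180 min and 0.78 at 30 min against control.

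BAG2, a co-chaperone that binds Hsp70 and inhibits the ubiquitin ligase CHIP, also had its highest median level at 180 min (chromosome 23, 45658314 to 45667362). Its lowest, median and highest levels were 37.2, 142 and 200 CPM at 180 min, 26.8, 71 and 97.1 CPM at 30 min, and 24.1, 47 and 76.3 CPM in control. Again 7 of the 9 libraries at 180 min exceeded every 30 min library, and goats 15 and 10 did not. The log2 difference was 1.02 ± 0.29 (SE) with an adjusted p of 0.119 by edgeR and 0.0282 by DESeq2.

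PKDCC, a secreted tyrosine kinase of extracellular proteins, ranked next (chromosome 11, 24352326 to 24364366). It had 103, 297 and 563 CPM as lowest, median and highest level at 180 min, 91.2, 177 and 221 CPM at 30 min, and 98.7, 125 and 159 CPM in control. Of the 180 min libraries 6 were above all 30 min libraries, and goat 15 was the lowest. The log2 difference was 0.88 ± 0.28 (SE, edgeR adjusted p = 0.236).

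ASCC1, a subunit of a transcriptional coactivator complex, spread widely within each group (chromosome 28, 17331878 to 17445938). It had 12.3, 86 and 157 CPM as lowest, median and highest level at 180 min, 7.34, 22.4 and 55.9 CPM at 30 min, and 4.99, 11.6 and 23.3 CPM in control. At 180 min 5 libraries were above all 30 min libraries and the other 4 were among them. The log2 difference of 1.40 ± 0.45 (SE) had an edgeR adjusted p of 0.262. Its change against control in the authors' deposited tables, 2.60 at 180 min and 1.14 at 30 min, was called only in the 180 min table.

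The 3 genes listed in opposite directions against control had to differ between the durations by that choice, and their values are a description. SPSB2, an adaptor that sends inducible nitric oxide synthase for degradation, had 3.79, 8.75 and 19.4 CPM as lowest, median and highest level at 180 min, 2.77, 3.9 and 8.54 CPM at 30 min, and 3.66, 6.41 and 10.4 CPM in control. THOC6, a subunit of the THO complex of mRNA export, had 2.84, 6.91 and 43.9 CPM at 180 min, 2.39, 3.65 and 5.44 CPM at 30 min, and 2.62, 5.27 and 7.94 CPM in control. Both genes overlapped between the durations, and the highest THOC6 value came from goat 15 alone, with the next library at 10.2 CPM. BHLHE41, a transcriptional repressor of the circadian clock, had 1.82, 3.23 and 5.02 CPM at 180 min, 2.25, 6.38 and 33.8 CPM at 30 min, and 2.48, 4.51 and 13 CPM in control. For BHLHE41, 8 of 9 libraries at 30 min lay above every 180 min library, and goats 23 and 27 of the 30 min group were highest. The log2 differences were 1.16 ± 0.28 for SPSB2, 1.45 ± 0.41 for THOC6 and -1.69 ± 0.39 for BHLHE41 (SE). Without goat 15 the THOC6 difference was 0.72.

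**Figure D2:**
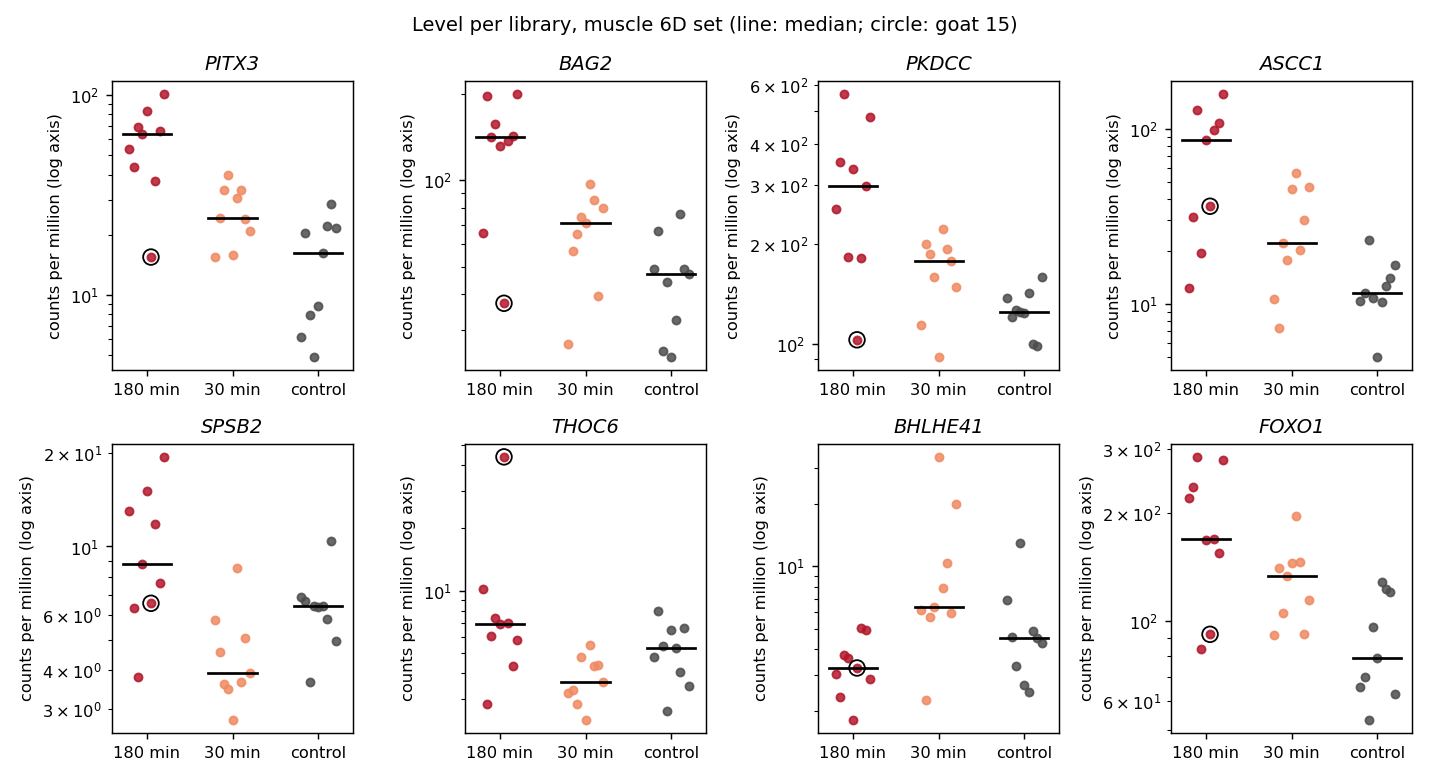
Level of 8 genes in each of the 27 libraries, in CPM on a log axis, with 180 min, 30 min and control side by side. Lines are group medians and the open circle is goat 15, which is the lowest 180 min library for PITX3, BAG2 and PKDCC and the highest for THOC6.

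Goat 15 weighs on the number of genes called. Without it edgeR called 5 genes at an adjusted p under 0.05, PITX3, BAG2, PKDCC and SPSB2 as higher and BHLHE41 as lower at 180 min, against 0 with all 18 libraries. Of these, SPSB2 and BHLHE41 had to differ by the choice of genes. Goat 15 was also the lowest 180 min library for RPS6KA3, a growth factor-activated kinase, at 35.1 CPM. In the 24H muscle set, which may hold the same goats, number 15 was also the lowest of the 9 libraries at 180 min for PITX3, BAG2, PKDCC and RPS6KA3. The part of this goat in the result beyond these values was not tested.

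The other genes named as higher at 180 min were further from the threshold. FOXO1 had 83.6, 168 and 285 CPM as lowest, median and highest level at 180 min, 91.6, 134 and 196 CPM at 30 min, and 53.2, 78.9 and 129 CPM in control. Its log2 difference was 0.53 ± 0.24 (SE, edgeR adjusted p = 1.0), and the ranges of both transported groups overlapped, with 4 libraries at 180 min above all at 30 min. The differences were 0.48 for NUDT7, a peroxisomal enzyme that cleaves coenzyme A, 0.43 for RPS6KA3, 0.43 for P4HA3, a collagen prolyl hydroxylase subunit, 0.36 for PDXK, the kinase that makes the active form of vitamin B6, and 0.25 for PPRC1, a coactivator of mitochondrial biogenesis. None of these passed the test, and P4HA3 was at 0.28 without goat 12.

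Among the genes named as lower at 180 min, which apart from GALNT18 (48.3) had a mean of at least 50 counts, those other than BHLHE41 differed by less than 1 log2 unit. VEGFC, a growth factor for lymphatic vessels, had 2.2, 3.06 and 6.16 CPM as lowest, median and highest level at 180 min, 3.13, 4.95 and 9.3 CPM at 30 min, and 5.03, 6.94 and 14.3 CPM in control. Its difference was -0.55 ± 0.25 (SE, edgeR adjusted p = 1.0), with 5 libraries at 180 min below every 30 min library. HBEGF, a ligand of the EGF receptor, had 4.77, 7.1 and 17.2 CPM at 180 min, 8.78, 10.8 and 23.8 CPM at 30 min, and 10.3, 18.5 and 37.4 CPM in control, a difference of -0.44. For HBEGF too, 5 libraries at 180 min lay below all 30 min libraries. The differences were -0.64 for GALNT18, a glycosyltransferase family member, -0.53 for SSC4D, a scavenger receptor family member, -0.49 for DAGLA, which makes an endocannabinoid, -0.38 for MARCKS, a protein kinase C substrate, and -0.34 for TNK2, a non-receptor tyrosine kinase. MEDAG, known from fat cell differentiation, was at -0.66, HSD17B12, an enzyme of fatty acid elongation, at -0.46, and EVC2, a ciliary protein of hedgehog signalling, at -0.35. None passed the test. Single 30 min libraries moved some of these values: HBEGF was at -0.28 without goat 25, MEDAG at -0.36 without goat 27 and HSD17B12 at -0.30 without goat 19.

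The genes of the glucocorticoid response among the 352 had overlapping levels at 180 min and 30 min. Their departure from control at both durations was fixed by the choice of genes, so it is a description. Of the 32 genes on that list 7 were listed in both tables, all as higher than control at both durations, and 0 of the 7 were called between the durations. The other genes of the list have no value here. Nominally 5 were higher and 2 lower at 180 min, with a median log2 difference of 0.15. The median was -0.02 over the 114 genes higher than control at both durations and -0.04 over all 352 genes. FOXO1, described above, had the largest difference on the list, 0.53, and was its only gene at an unadjusted p under 0.05. FKBP5, the chaperone partner of the receptor, had 21.7, 74.3 and 160 CPM as lowest, median and highest level at 180 min, 23.3, 50.9 and 94.3 CPM at 30 min, and 10.5, 17 and 32.5 CPM in control. The groups overlapped over most of their range, and limma's 95% interval was -0.35 to 1.00. KLF15 had 3, 14.2 and 37.5 CPM at 180 min, 3.76, 11.3 and 31.6 CPM at 30 min, and 3.78, 7.94 and 14 CPM in control. The lowest libraries of each transported group were at the control level for KLF15, and its interval was -0.70 to 0.95. CRISPLD2, a secreted protein, differed by 0.15, HIF3A, an inhibitor of the hypoxia response, by 0.03, and ZBTB16, a zinc finger transcription factor, by -0.48 on the log2 scale, or -0.29 without goat 19.

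Clock genes other than BHLHE41 also had small differences. Of 25 listed clock genes 6 were present, 2 nominally higher and 4 lower at 180 min, with 0 called and a median of -0.14. PER1, which is on the glucocorticoid list too, had 70.7, 205 and 338 CPM as lowest, median and highest level at 180 min, 101, 232 and 406 CPM at 30 min, and 110, 142 and 255 CPM in control. USP2, a deubiquitinase with a daily rhythm, had 213, 320 and 428 CPM at 180 min, 196, 284 and 430 CPM at 30 min, and 131, 184 and 237 CPM in control. For USP2 the transported groups spanned nearly the same range, while for PER1 they overlapped and both ends of the range were lower at 180 min. CIART, a repressor of the clock activators, differed by 0.00, RORA, a nuclear receptor of the clock loop, by -0.12, and DBP, a clock output factor, by -0.24. The labels give no hour of sampling for any goat.

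Lipases and transporters gave a few wide intervals. Of 77 genes on the fatty acid list 3 were present, with a median of -0.19 and 0 called. LIPG, endothelial lipase, had 1.81, 15 and 37.8 CPM as lowest, median and highest level at 180 min, 2.12, 15.1 and 48.8 CPM at 30 min, and 1.23, 3.2 and 9.78 CPM in control. Its medians were nearly equal at both durations, and the interval of -1.18 to 0.92 still allows a 2-fold difference in the lower direction. LPL, which frees fatty acids from circulating lipoproteins, had 16.1, 33.3 and 75.4 CPM at 180 min, 17.8, 42.1 and 153 CPM at 30 min, and 10.9, 30.9 and 38.4 CPM in control. Its difference was -0.62, or -0.33 without goat 19, which held the highest 30 min value. ABHD5, the activator of adipose triglyceride lipase, differed by 0.03. Of the 8 solute carriers present 5 were nominally higher and 3 lower at 180 min, with a median of 0.14 and 0 called. SLC16A9, a member of the monocarboxylate transporter family, had 0.33, 0.979 and 5.31 CPM at 180 min, 0.186, 0.706 and 1.39 CPM at 30 min, and 0.106, 0.277 and 0.723 CPM in control, with 3 libraries at 180 min above all at 30 min. Its log2 difference was 1.35 by edgeR (adjusted p = 0.569) and 0.70 by limma. Counts per library were low, at 5 to 67 at 180 min and 3 to 21 at 30 min.

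**Figure D3:**
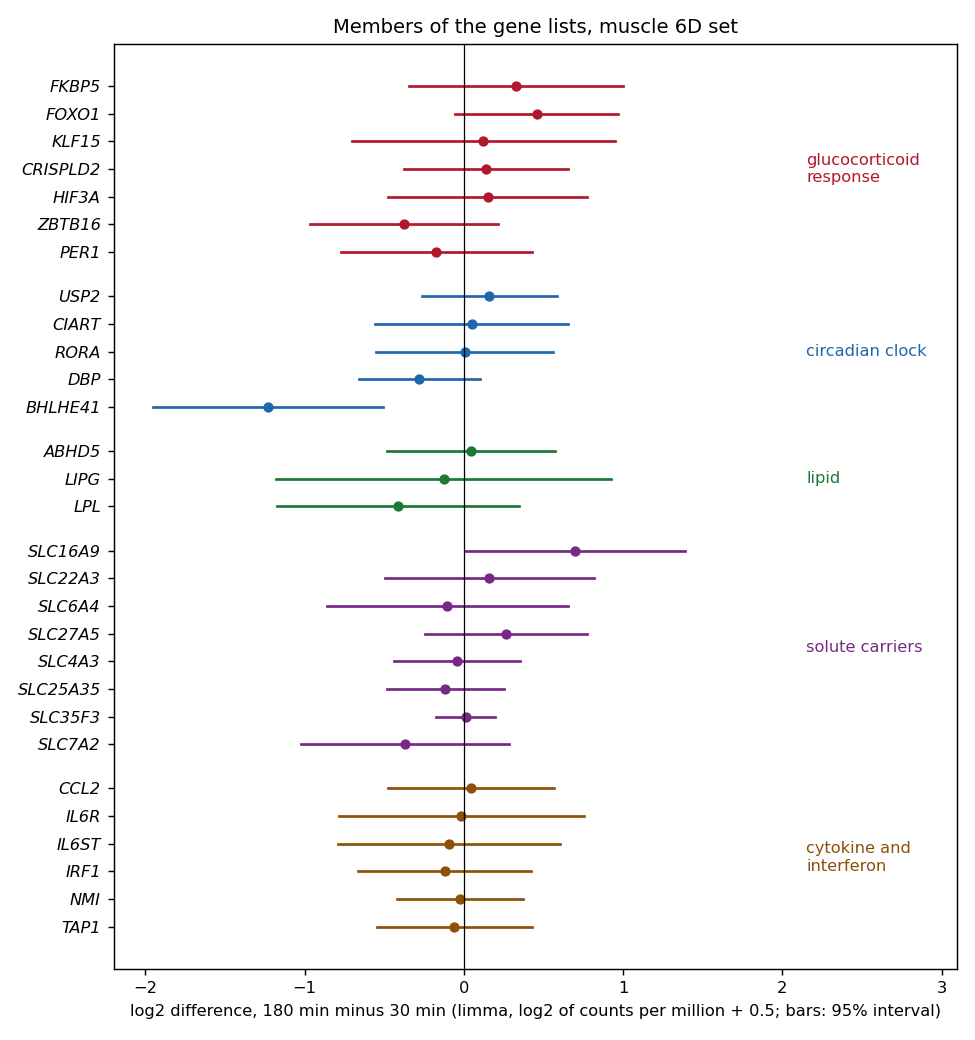
Difference of 180 min minus 30 min with limma's 95% interval on the log2 scale (CPM + 0.5) for the genes of 6 lists, with cytokine and interferon genes grouped together. The intervals of all but BHLHE41 and SLC16A9 include 0.

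The interferon and cytokine genes matched by the lists had small differences too. Of 57 symbols on the interferon response list 3 were present, all listed as lower than control at both durations. Their median difference between the durations was -0.06, with 0 called. IRF1, an interferon-induced transcription factor, had 6.41, 9.02 and 27.2 CPM as lowest, median and highest level at 180 min, 6.49, 11.1 and 23.4 CPM at 30 min, and 12.2, 15.7 and 53.5 CPM in control. IL6ST, the shared receptor subunit of the interleukin-6 family, had 14.7, 33 and 71.7 CPM at 180 min, 17.3, 33.7 and 149 CPM at 30 min, and 16.9, 25.2 and 48.5 CPM in control. Its highest 30 min value came from goat 19, and without that library the difference turned to 0.23 from -0.25. CCL2, a monocyte chemoattractant, had 0.173, 0.528 and 1.61 CPM at 180 min, 0, 0.681 and 1.38 CPM at 30 min, and 0.851, 1.81 and 8.12 CPM in control. The 3 cytokine and receptor genes had a median difference of -0.05, with 0 called. The 4 zinc finger factors had a median of -0.03, with 0 called.

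The endothelial and macrophage markers among the 352 genes were chosen as lower than control, and their summed levels overlapped between the durations. The 2 endothelial markers present of 32, CLDN5 and APLNR, summed to 35.4, 77.3 and 156 CPM as lowest, median and highest level at 180 min, 55.4, 78.1 and 148 CPM at 30 min, and 68.1, 122 and 198 CPM in control. The 2 macrophage markers present of 27, AIF1 and TYROBP, summed to 4.2, 6.56 and 12.2 CPM at 180 min, 2.47, 6.6 and 9.77 CPM at 30 min, and 4.89, 10.9 and 21.4 CPM in control. In bulk muscle, fewer cells of a type and less RNA per cell cannot be told apart. Only genes that are listed in both tables carry a value here, so most markers of these lists have no value in this comparison. LPL, described above and listed as higher than control, was the 1 adipocyte marker present of 15.

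For the genes listed as lower than control, the control libraries differed widely among themselves. Each library's median log2 deviation from the median of the 18 transported libraries lay between -0.42 and 0.40 in the transported groups for these 235 genes. Control goats 3, 5, 6, 7 and 9 were at 0.72 to 1.14, and control goat 4 was at 0.02. For the 114 genes listed as higher, control libraries lay between -0.78 and -0.36 and transported ones between -0.29 and 0.40. The rule chose the genes by these control levels, so the offset of the controls is a description.

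**Figure D4:**
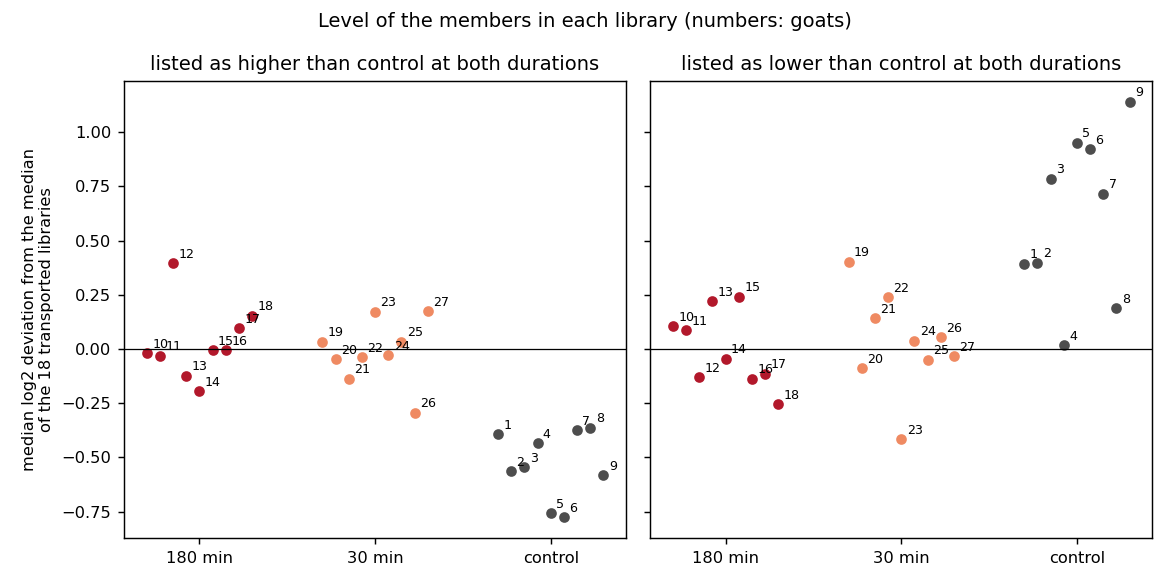
Median log2 deviation of each library from the median of the 18 transported libraries, for the 114 genes higher and the 235 genes lower than control at both durations (numbers are goats). Libraries at 180 min and 30 min overlap, and control goats 1, 2, 4 and 8 lie nearest to the transported libraries for the genes that were lower.

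The 24H muscle set gave values for the same contrast in other libraries of goats with the same numbers. The labels do not say whether these are the same goats. The sets may therefore not be independent, and what they share is a description. It lists 636 genes in both of its tables, of which edgeR called 29 between the durations, or 4.56% (2.04% as higher and 2.52% as lower at 180 min), and 9.91% had an unadjusted p under 0.05. The 6D and 24H sets share 112 genes. In the 24H libraries 3 of the 112 were called, a share of 2.68%, beside 4.56% over all 636 genes. The 3 were BAG2, PKDCC and the lincRNA ENSCHIG00000000821, and the sets shared the sign of the difference in 79 of the 112 genes. Across the 112 genes the differences had a Pearson correlation of 0.794, a description in which the goat numbers are shared and the genes are not independent. Of the 112 genes, 9 (8.04%) had an unadjusted p under 0.05 in the 6D set, and all 9 had the same sign in the 24H set.

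BAG2, PKDCC and PITX3 had their highest median levels after 180 min in the 24H set too. SPSB2 and THOC6 had no 24H value, since they were not listed for both durations there. BAG2 had 106, 212 and 333 CPM as lowest, median and highest level at 180 min, 76.5, 108 and 172 CPM at 30 min, and 49.5, 63.2 and 126 CPM in the 24H control. It rose by 0.92 ± 0.20 log2 units at 180 min relative to 30 min (SE, edgeR adjusted p = 0.012). PKDCC had 155, 319 and 676 CPM at 180 min, 109, 197 and 270 CPM at 30 min, and 86.1, 135 and 205 CPM in control, and rose by 0.89 ± 0.23 (SE, edgeR adjusted p = 0.025). PITX3 had 25.3, 62.9 and 93.3 CPM at 180 min, 10.5, 27.7 and 66.4 CPM at 30 min, and 3.7, 14.7 and 32 CPM in control, with a difference of 0.99 ± 0.29 (SE, edgeR adjusted p = 0.054). All 3 genes overlapped between the durations in the 24H set as well.

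FKBP5 differed more in the 24H set, at 0.85 ± 0.39 (SE), than in the 6D set, at 0.40 ± 0.32 (SE), and the difference between the sets was not tested. In the 24H libraries it had 36.3, 209 and 413 CPM as lowest, median and highest level at 180 min, 71.4, 104 and 166 CPM at 30 min, and 22.6, 38.6 and 45.2 CPM in control. It did not pass the test there either, with an edgeR adjusted p of 0.48. ASCC1 differed by 1.28 ± 0.47 (SE, edgeR adjusted p = 0.20) in the 24H set.

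**Figure D5:**
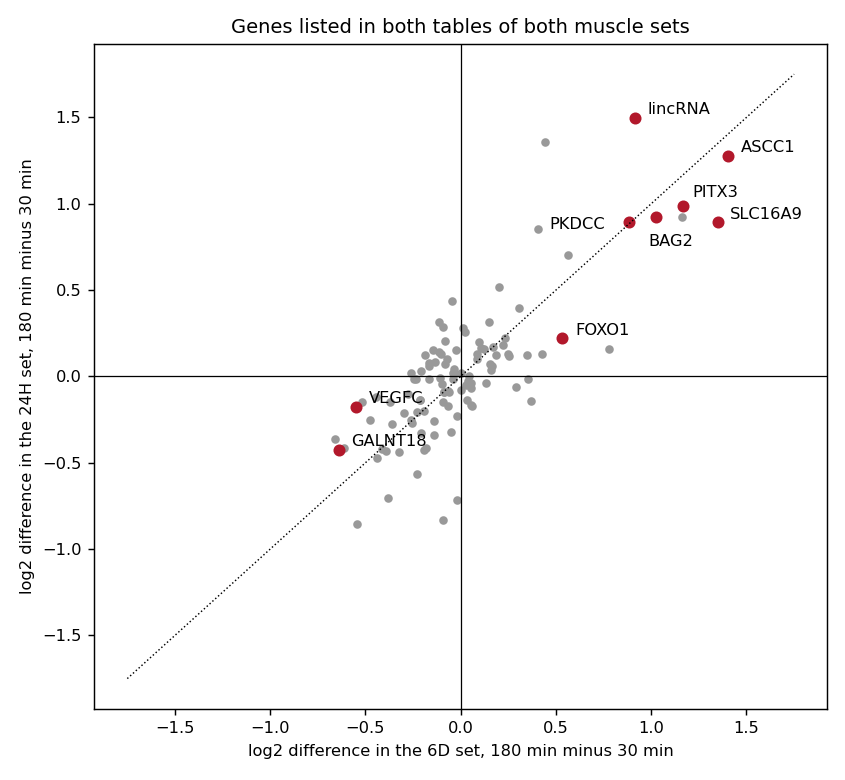
Log2 difference of 180 min minus 30 min in the 6D set (horizontal) and in the 24H set (vertical) for the 112 genes listed in both tables of both sets. Red points have an unadjusted p under 0.05 in the 6D set, the dotted line marks equal differences, and all 9 red points lie in the quadrants of equal sign.

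The lincRNA ENSCHIG00000000821 lies next to KLF15 on chromosome 22. It spans 60213572 to 60215103 on the minus strand, 3555 bases before KLF15, which spans 60218659 to 60226345 on the plus strand. It had 0.777, 3.92 and 5.87 CPM as lowest, median and highest level at 180 min, 0.384, 1.09 and 5.32 CPM at 30 min, and 0.103, 0.425 and 1.89 CPM in control. At 180 min 8 of 9 libraries were above the 30 min median, yet the ranges overlapped. The log2 difference was 0.92 ± 0.44 (SE, edgeR adjusted p = 1.0) in the 6D set and 1.5 ± 0.40 (SE, edgeR adjusted p = 0.028) in the 24H set, while KLF15 differed by 0.23 in the 6D set. In all, 12 pairs of neighbouring listed genes lay within 20000 bases of each other. PITX3 and PPRC1, both nominally higher at 180 min, are 50494 bases apart on chromosome 26.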

How the data were processed

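Muscle RNA was isolated with the RNeasy Fibrous Tissue kit and made into libraries with the NEBNext Ultra kit, per the labels' protocols. The authors deposited read counts per gene and FPKM values per library with log2 fold changes, p-values and adjusted p-values against control. They also deposited a size-factor-scaled signal, in which each count is divided by 1 factor per library and table, as the deposited values show, and these factors served as an alternative scaling. For aligner, counter, build and strand setting, the labels name none. The deposited adjusted p-values imply that the authors adjusted over 14384 genes at 180 min and 16947 at 30 min. Each library's total was computed from counts, FPKM and gene length. For the comparison of the durations, the deposited counts of the 352 genes were fitted with edgeR 4.0.16 (quasi-likelihood, 18 libraries, these totals as library sizes, no filter), with Benjamini-Hochberg adjustment over the 352 genes. Calls are at an adjusted p under 0.05. DESeq2 1.42.0, limma 3.58.1 (log2 of CPM + 0.5) and exact permutation were alternatives. The edgeR fit was tested on counts simulated from the 352 genes, with 100 genes changed 2-fold and 100 changed 1.5-fold. It called 63% of the former and 23% of the latter, so 0 calls do not exclude differences of these sizes. With fewer changed genes the adjustment is stricter, and the shares could be lower. Nothing in the labels says more of the replicates than that each is 1 goat.

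Named genes were up to 12 in each direction with a symbol and a mean of at least 50 counts, filled by smallest p where none passed, those listed in opposite directions, and the smallest p of each list with 3 or more genes. The gene from 1 such list is not reported here. KLF15, FKBP5 and other list members were named after their values were seen, as were GALNT18 and the lincRNA. The genes and lists were chosen with earlier results of these data known. Lists with 0 of the 352 genes were those of proteasome, autophagy, slow and fast fibres, sarcomere, calcium handling, oxidative phosphorylation, mitochondrially encoded genes, the TCA cycle, cytosolic and mitochondrial ribosomes, and lymphocyte, erythroid, fibroblast, nerve, satellite cell and muscle fibre markers. The lists go by gene symbol and miss genes without one. By biotype, 3 of the 352 genes are mitochondrial tRNA genes, which the list of mitochondrially encoded genes did not match. FPKM and CPM give no measure of RNA per cell.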

Additional observations from a re-analysis of the deposited data

Results flagged for a closer look

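In groups of 9 libraries, a single library was far from the others in 10 of 87 groups. The cutoff would flag 1 in 20 groups, or 4.35, if values were normally distributed and groups independent. The values were not log-transformed, every flagged library was the highest of its group, and the groups reuse the same libraries. The figure of 4.35 is therefore no measure of chance here. At 180 min this was goat 15 for THOC6 (43.9 CPM) and for IRF1 (27.2 CPM). At 30 min goat 19 was apart for IL6ST (149.0 CPM) and for the share of the library taken by the 352 genes (0.879%). In control, goat 8 was apart for SPSB2 (10.4 CPM) and HBEGF (37.4 CPM), goat 9 for VEGFC (14.3 CPM) and IL6ST (48.5 CPM), goat 4 for BHLHE41 (13 CPM) and goat 5 for IRF1 (53.5 CPM).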

How the results depend on the processing

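The count of called genes between 180 min and 30 min was 0 in the edgeR fit and 3 with the authors' size factors linked through the controls, with TMM, with upper-quartile scaling, or with genes of at least 50 counts on average (PITX3 and SPSB2 higher, BHLHE41 lower in each). It was 5 by DESeq2, 2 with all 27 libraries in the fit, and 4 without goats 15 and 19, an alternative chosen after seeing the data. It was 0 by limma with either pseudocount and by exact permutation. Adjusting the same edgeR p-values over 16947 genes is stricter and could only give 0, so that setting is no check. Leaving out 1 library gave 0 to 5 calls, with 5 without goat 15, 2 without goat 16 or goat 22, and 1 without goat 12, 20 or 24. The cause was not tested. SPSB2, THOC6 and BHLHE41 were listed in opposite directions against control, so their calls under any setting are a description. The median log2 difference was -0.09 to 0.03 with 1 library left out and -0.06 to 0.004 under the other alternatives. Of 782 values for the 27 named genes, 743 kept direction and side of the threshold, 35 passed it and 4 reversed: IRF1 at 0.0066 without goat 19 and 0.0909 without goat 22, with a range of -0.363 to 0.0909 over the left-out libraries, and IL6ST at 0.233 without goat 19 and 0.063 without goats 15 and 19, with a range of -0.425 to 0.233. No paired analysis was possible because the 180 min and 30 min goats share no number. Low counts limit 60 genes with a mean under 10.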
